A study of Homo sapiens with 16 samples.

Results

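The genes described here are the nuclear genes of the mitochondrial respiratory chain, followed in skin fibroblasts across 6 treatments. They were taken from the gene counts by symbol, as the NDUFA, NDUFB, NDUFC, NDUFS and NDUFV genes, SDHA to SDHD, the UQCR genes, the COX4 to COX8 genes with a letter A, B or C, and the ATP5 genes. Of 28374 genes in the counts, 91 matched, and 2 pseudogenes, ATP5EP2 and UQCRBP1, were dropped. The 89 members comprised 36 subunits of complex I, 4 of complex II, 9 of complex III, 17 of complex IV and 16 of complex V, which makes 82 subunit genes. The other 7 were 3 transcripts with the antisense suffix AS1, 2 read-through genes, and ATP5S and ATP5SL, which carry the ATP5 name without being subunits. Symbols with another form, such as COX4I1, CYC1 and CYCS, lie outside the rule and were taken as a separate list.

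The respiratory chain sits in the inner mitochondrial membrane. Complexes I and II pass electrons from NADH and succinate to ubiquinone, complex III hands them to cytochrome c, complex IV hands them to oxygen, and complex V, the ATP synthase, uses the resulting proton gradient to make ATP. Mitochondrial DNA codes for some core subunits, and nuclear genes code for the rest, most of them small proteins of abundant, stable messenger RNA. Their promoters are known for sites of NRF1, of the ETS factor GABP and of YY1, and the coactivator PGC-1alpha, whose gene is induced through CREB in several tissues, acts on many of them.

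RNA was measured in CCD-1070Sk, an established line of human skin fibroblasts, after serum starvation. The groups were EGF (30 ng/ml, 1 h), TPA (100 nM, 1 h, a phorbol ester that activates protein kinase C), H89 (10 µM, 30 min, an inhibitor of MSK1, MSK2 and protein kinase A), EGF+H89 and TPA+H89 (30 min of H89, then 1 h of the mitogen), and untreated control cells. There were 3 libraries of EGF, 2 of TPA, 3 of H89, 2 of EGF+H89, 2 of TPA+H89 and 3 of control, 15 in all, after an exact copy of control 3 was left out. The H89 cells are recorded at 0 h, so the time in H89 may differ from that in the combined groups. It is 1 line, and nothing in the labels says that replicates were separate cultures, so a p-value here speaks to the spread of these libraries alone, which may be technical.

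Total counts were 7527026 in TPA+H89 1 and 20113265 to 130075914 in the other libraries, with TPA 2 the deepest. The labels give no batches, and 3 technical batches, A, B and C, were read from the counts. Only B and C hold every treatment. Batch A, where more genes had a count of 1 than a count of 2, holds EGF 1 and control 1. Batch B, with RNR1 and RNR2 above 10% of counts, holds EGF 2, TPA 1, H89 1, EGF+H89 1, TPA+H89 1 and control 2. Batch C holds the remaining 7 libraries. Batch B is not uniform: the share was 11.7% in TPA 1 and 12.0% in TPA+H89 1, and 24.8% to 30.4% in its other libraries. Differences of TPA 1 or TPA+H89 1 from those within batch B thus also span a difference in this share. Batch A is not uniform either: the share was 4.48% in control 1 and 0.0183% in EGF 1. The 10 fibroblast markers summed to 32928 to 67248 CPM per library, 6 keratinocyte markers to 6.96 to 47.7, 5 endothelial markers to 1.96 to 7.02, 5 melanocyte markers to 1.12 to 6.87, 6 leukocyte markers to 11.9 to 67.2 and 6 muscle markers to 0.253 to 5.06. A sum of 10 immediate-early genes was 1450 to 2301 CPM in EGF, 4560 to 18508 in TPA, 243 to 367 in H89, 2455 to 2596 in EGF+H89, 3256 to 4505 in TPA+H89 and 177 to 410 in control libraries. In bulk RNA fewer cells of a type and less RNA per cell cannot be told apart.

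The promoters of 66 of the 82 subunit genes were matched in the RefSeq table of human promoters (build GRCh38.p14, 250 bases before to 50 after the start of the gene). The NRF1 motif GCGCANGCG lay in 21 of these, 31.8%, against 11% of 15843 promoters of protein-coding genes, counting either strand. The GABP motif CCGGAAG lay in 27.3%, against 14.2%, and the YY1 motif AAGATGGCG in 12.1%, against 2.74%. The cAMP response element TGACGTCA, the full site of CREB, lay in 5 (7.58%, against 2.59%), the promoters of SDHB, NDUFA10, ATP5I, NDUFB2 and ATP5G1. The AP-1 motif TGANTCA lay in 6.06%, against 5.75%. SDHB and ATP5I are shown because each holds the cAMP response element together with a pair of the other motifs; capitals mark motif matches. The SDHB promoter, chr1:17053983-17054282 on the minus strand, holds GABP, the cAMP response element and YY1 in that order. The ATP5I promoter (RefSeq symbol ATP5ME), chr4:674227-674526 on the minus strand, holds 3 NRF1 matches, the cAMP response element and GABP. A match describes these letters and is not evidence of binding.
SDHB: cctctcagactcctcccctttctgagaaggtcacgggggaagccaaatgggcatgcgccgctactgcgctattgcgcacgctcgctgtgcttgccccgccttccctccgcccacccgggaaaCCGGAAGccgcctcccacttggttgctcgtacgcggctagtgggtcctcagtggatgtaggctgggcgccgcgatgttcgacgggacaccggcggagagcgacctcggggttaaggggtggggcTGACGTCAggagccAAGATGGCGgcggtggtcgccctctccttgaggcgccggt
ATP5I: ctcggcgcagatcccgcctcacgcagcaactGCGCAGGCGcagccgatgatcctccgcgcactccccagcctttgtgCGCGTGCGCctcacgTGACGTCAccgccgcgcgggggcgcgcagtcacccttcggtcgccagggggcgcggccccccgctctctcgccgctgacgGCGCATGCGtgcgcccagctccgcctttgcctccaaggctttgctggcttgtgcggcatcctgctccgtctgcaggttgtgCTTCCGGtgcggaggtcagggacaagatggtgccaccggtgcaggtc

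Of the 89 members, 84 passed the filter on low counts. The others were COX6A2, COX7B2, COX8C, ATP5J2-PTCD1 and NDUFC2-KCTD14, at or near 0. Levels below are CPM, counts over library size with TMM scaling, and only where divided by the coding length in kilobases (CPM per kb) are they set between genes. On that scale levels are means over the 15 libraries, and medians are over the subunits that passed the filter. The median subunit of complex III stood at 257 CPM per kb, of complex IV at 252, of complex V at 122, of complex I at 87.8 and of complex II at 58.9. The short subunits UQCRB, UQCR11 and COX7C had the highest levels per kb, 656, 647 and 636. The long subunits NDUFS1, the largest iron-sulfur protein of complex I, and SDHA, the flavoprotein of complex II, stood at 36.7 and 37.1. Untranslated ends are not in this length, so a short coding sequence can raise a level per kb.

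Isoforms differed in mean level over the 15 libraries. COX6A1, the general form of subunit VIa, had 202 CPM per kb, and COX6A2, the form of heart and skeletal muscle, 0.0534. COX7A1, also known as a muscle form, was present at 112 CPM per kb, below COX7A2 at 238 and COX7A2L, a factor of supercomplexes, at 288, while the muscle markers were near 0. The order of COX7A2 and COX7A2L was not the same in every library. The general forms COX6B1, COX7B and COX8A stood at 413, 161 and 412 CPM per kb, and the forms known from testis, COX6B2, COX7B2 and COX8C, at 3.78, 0.0182 and 0. NDUFA4, a complex IV subunit first assigned to complex I, stood at 351, and its paralog NDUFA4L2, known as a target of hypoxia-inducible factor, at 14.7. ATP5G1, ATP5G2 and ATP5G3 code for the same mature c subunit of the ATP synthase rotor, and stood at 45.9, 281 and 174 CPM per kb.

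**Figure D1:**
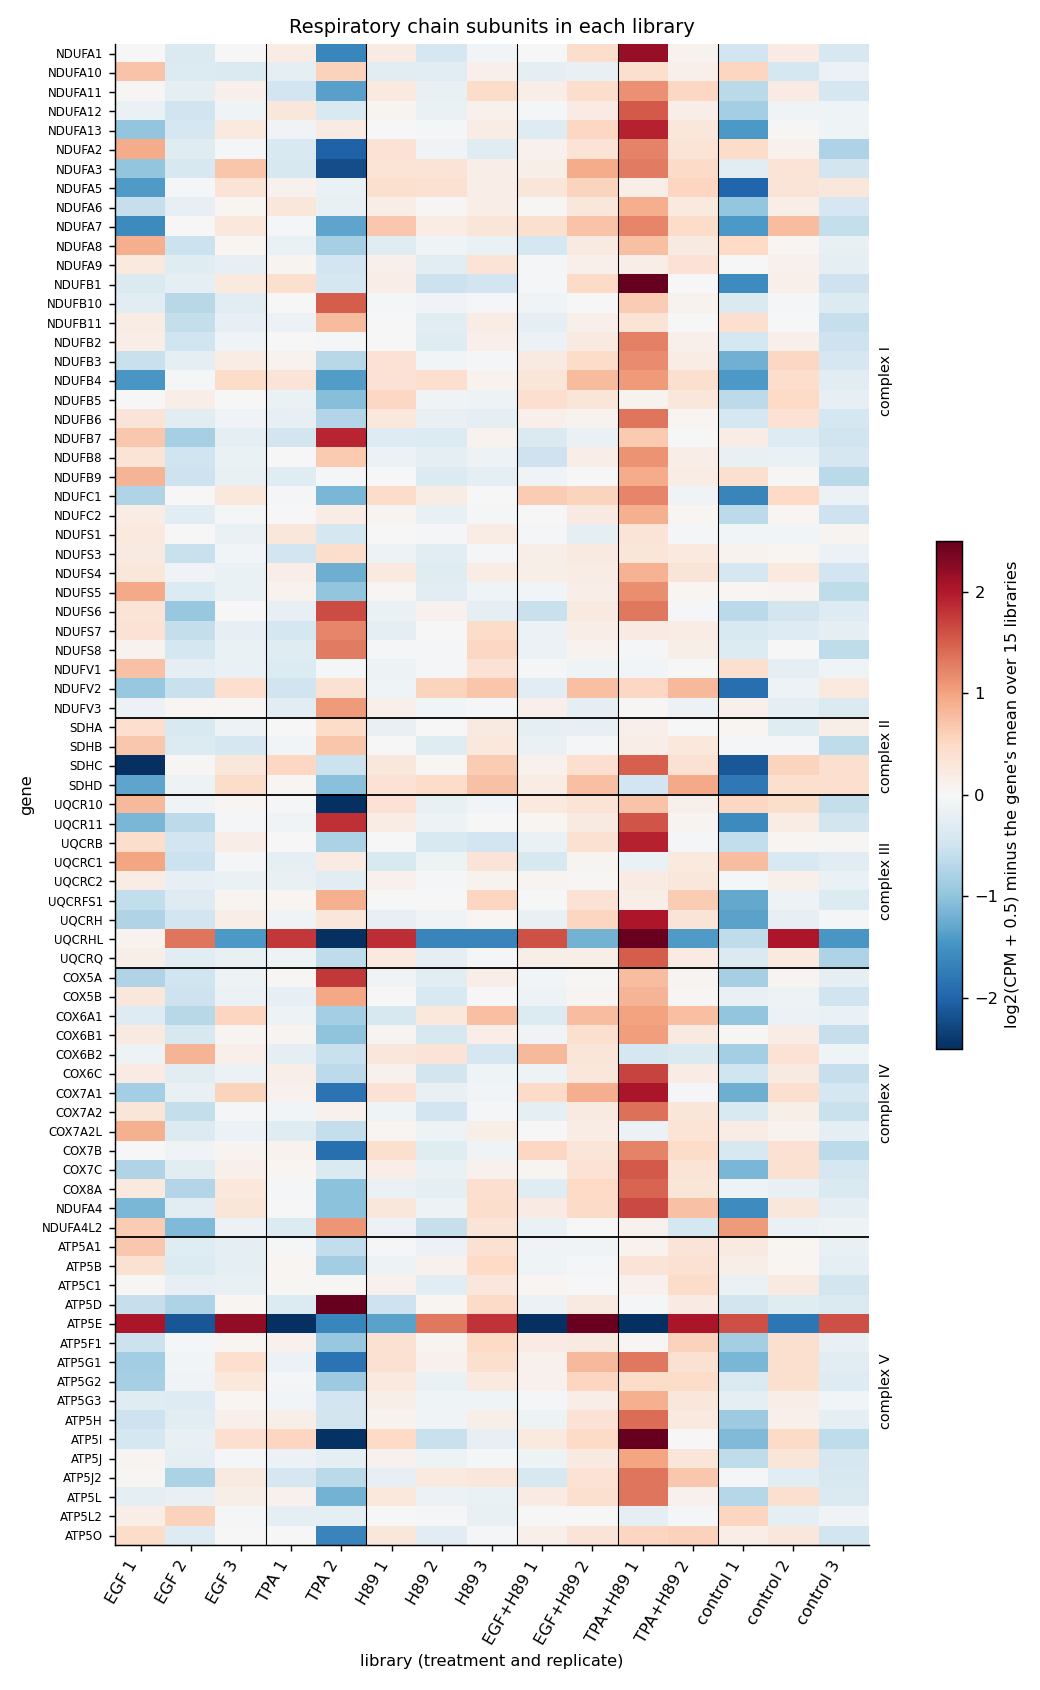
Rows are subunit genes that passed the filter, by complex, and each column is a library, by treatment; colour is log2(CPM + 0.5) minus the mean of that gene over 15 libraries, with the scale ending at 2.5 either way. TPA+H89 1 is the highest library for 42 of the 84 members tested, TPA 2 is highest for 18 and lowest for 30, and UQCRHL and ATP5E follow the batch.

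The least variable subunit was UQCRC2, a core protein of complex III. It stood at 126, 95.9 and 98.5 CPM in EGF, 97.7 and 91.1 in TPA, 119, 107 and 117 in H89, 116 and 112 in EGF+H89, 128 and 134 in TPA+H89, and 108, 122 and 98.6 in control libraries. Both TPA libraries were below each control library, both TPA+H89 libraries were above them, and the other groups overlapped with control. Next came NDUFS1, at 94.1, 79.3 and 71.0 CPM in EGF, 96.4 and 58.7 in TPA, 79.6, 77.4 and 90.4 in H89, 77.5 and 66.9 in EGF+H89, 98.8 and 76.6 in TPA+H89, and 75.7, 75.3 and 82.7 in control libraries. Its log2 difference from control was 0.06 ± 0.22 (SE) for EGF and 0.08 ± 0.22 for H89. SDHA had 101 CPM in TPA 2 and 55.8 to 97.1 elsewhere, with log2 differences from control of 0.03 ± 0.24 for EGF, 0.28 ± 0.27 for TPA and 0.05 ± 0.24 for H89. The SD of log2 levels over the 15 libraries was 0.17 for UQCRC2, 0.20 for NDUFS1 and 0.25 for SDHA.

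The first question was whether the growth factor alone moved these genes within 1 h. EGF against control called 0 of the 84 members by edgeR's quasi-likelihood test (adjusted p under 0.05 over 18575 genes), 0 at an unadjusted p under 0.05 and 0 by DESeq2. Of all tested genes, 0.0269% were called and 1.63% had an unadjusted p under 0.05. Their median log2 difference was 0.12, against 0.02 for all tested genes, and 62 of 84 lay above 0, against 53.2% of all tested genes. The sign was not the same in each batch: the median was 0.44 in batch A, -0.45 in batch B and 0.36 in batch C. The batch A value sets EGF 1 against control 1, which also differ in their share of RNR1 and RNR2. ATP5A1, the alpha subunit of the synthase and the member of highest CPM, had 714, 365 and 381 CPM in EGF and 522, 465 and 392 in control libraries. EGF 1 was the highest and EGF 2 the lowest of these, so the groups overlapped, and the log2 difference was 0.08 ± 0.30 (adjusted p = 1.00). No member had groups that did not overlap, against 2.97% of all genes higher and 1.99% lower. The lowest p was that of ATP5S, a coupling factor that is no subunit, with 5.26, 5.37 and 3.85 CPM in EGF and 2.28, 4.32 and 2.81 in control libraries. Its groups overlapped, at a log2 difference of 0.63 ± 0.31 (adjusted p = 1.00). Next by p were COX6B2 at 0.71 ± 0.58 and NDUFC2 at 0.33 ± 0.27 on the higher side, and NDUFA4L2 at -0.46 ± 0.57, ATP5G3 at -0.15 ± 0.23 and NDUFB11 at -0.19 ± 0.32 on the lower side.

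H89 alone was set against control to ask what the inhibitor does without a mitogen. It called 0 members by edgeR, 0 at an unadjusted p under 0.05 and 0 by DESeq2. Of all tested genes 0% were called and 3.27% had an unadjusted p under 0.05, 3.01% being lower. The median log2 difference of the members was 0.18, against -0.05 for all tested genes, and 66 of 84 were above 0, against 45.2% of all tested genes. It was -0.01 in batch B and 0.31 in batch C, and 0.44 over all libraries but control 2. UQCRFS1, the Rieske iron-sulfur protein of complex III, had 45.1, 45.5 and 65.5 CPM in H89 and 18.4, 41.3 and 35.6 in control libraries. Each H89 library was above each control library, with control 1 far below the rest, and the log2 difference of 0.71 ± 0.34 did not pass (adjusted p = 1.00). Groups apart in this way, H89 higher, were seen for 3 members (UQCRFS1, NDUFS6 and ATP5S), against 2.85% of all genes, and H89 lower for 0, against 4.25%. COX6A1 had a log2 difference of 0.67 ± 0.42, and NDUFA8, on the lower side, of -0.35 ± 0.37, while NDUFB2-AS1, antisense to NDUFB2, was at -0.86 ± 0.74. The 4 subunits of complex II had log2 differences of 0.05 ± 0.24 (SDHA), 0.21 ± 0.32 (SDHB), 0.34 ± 0.70 (SDHC) and 0.55 ± 0.58 (SDHD). SDHC and SDHD, the membrane anchors, were low in batch A, at 4.44 and 21.3 CPM in EGF 1 and 5.89 and 15.3 in control 1. In the other libraries SDHC had 18.6 to 77.8 CPM and SDHD 25.9 to 104. SDHA, at 97.1 CPM in EGF 1 and 75.7 in control 1, lay within its range in the other libraries, 55.8 to 101.

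In the 5 genes whose promoter holds the cAMP response element the log2 difference of H89 from control was 0.21 ± 0.32 for SDHB, -0.17 ± 0.35 for NDUFA10, 0.25 ± 0.75 for ATP5I, 0.20 ± 0.30 for NDUFB2 and 0.52 ± 0.51 for ATP5G1, with an adjusted p of 1.00 for each by edgeR. SDHB, the iron-sulfur protein of complex II, had 43.2, 35.0 and 51.9 CPM in H89 and 42.0, 42.4 and 27.8 in control libraries, which overlapped. PPARGC1A, the gene of PGC-1alpha, was low throughout, at 0 to 2.06 CPM.

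With EGF present, H89 was followed in EGF+H89 against EGF. Here 0 members were called by edgeR, 0 at an unadjusted p under 0.05 and 0 by DESeq2. Of all tested genes 0% were called, and 0.0754% were higher and 1.59% lower at an unadjusted p under 0.05, 1.67% in all. The median log2 difference was 0.15, against -0.07 for all tested genes, and 58 of 84 members were above 0, against 42.8%, with 0.31 in batch B and 0.25 in batch C. Both EGF+H89 libraries were above each EGF library for 13 of 84 members, against 7.6% of all genes, and below for 1, against 10.1%. NDUFA7, a small subunit of complex I, was such a gene, with 17.2 and 21.5 CPM in EGF+H89 and 3.95, 12.8 and 15.6 in EGF libraries. EGF 1 was far below the others, and the log2 difference was 0.84 ± 0.65 (adjusted p = 1.00). ATP5G2 stood at 0.49 ± 0.37, NDUFC1 at 0.71 ± 0.55 and UQCRC1 at -0.43 ± 0.46. EGF+H89 against H89 called 0 members by edgeR, 0 at an unadjusted p under 0.05 and 0 by DESeq2, against 0.0269% of all genes called and 1.53% at that unadjusted p, with a median of 0.10 that was -0.11 in batch B and 0.28 in batch C. ATP5B, the catalytic beta subunit of the synthase, had 239.6 and 253 CPM in EGF+H89 and 239, 278 and 369 in H89 libraries, which overlapped (log2 difference -0.26 ± 0.33, adjusted p = 1.00). NDUFS3, a core subunit of complex I, was at 0.35 ± 0.29.

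**Figure D2:**
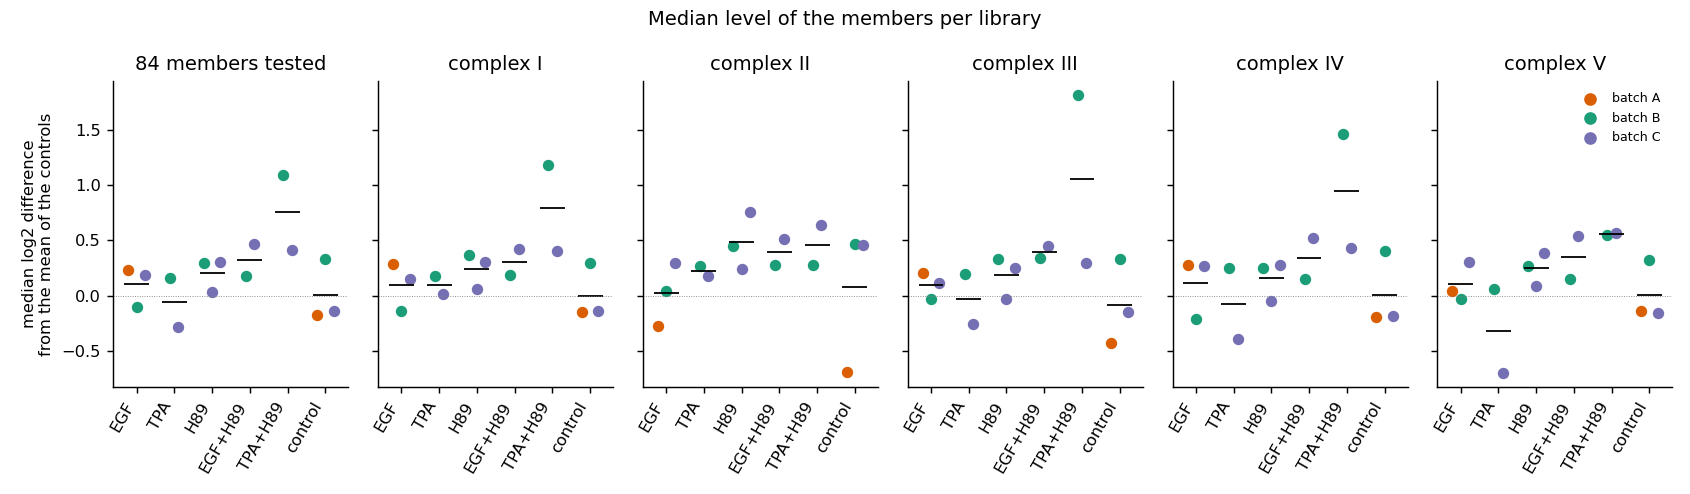
Each point is a library, placed by the median log2 difference of the members from the mean of the 3 control libraries, for the 84 members tested and for each complex; lines are group means and colours mark the technical batches A, B and C. TPA+H89 1 stands at 1.09 and TPA+H89 2 at 0.41, TPA 1 at 0.16 and TPA 2 at -0.28, while the control libraries span -0.17 to 0.33.

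TPA was set against control for the response to protein kinase C activation. EdgeR called 0 of the 84 members, against 0.415% of all tested genes, and DESeq2 called 2, ATP5D and COX5A, against 2.94% of all genes. At an unadjusted p under 0.05 there were 9 members higher and 1 lower, against 7.77% and 5.44% of all genes. The median log2 difference was -0.06, against -0.02 for all tested genes, and 38 of 84 were above 0, against 48.7%. The 2 TPA libraries differed: the median of TPA 1 from control was 0.16 and that of TPA 2 was -0.28. Set against the other libraries of its own batch, the members' log2 differences had an SD of 0.25 in TPA 1 and 1.17 in TPA 2, where the other 13 libraries had 0.17 to 0.73.

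ATP5D, the delta subunit in the stalk of the synthase, had 13.3 CPM in TPA 1 and 98.5 in TPA 2, against 12.1, 13.7 and 13.05 in control libraries. TPA 1 was within the controls and TPA 2 far above every other library. The log2 difference was 2.11 ± 0.58 (adjusted p = 0.204), and it was -0.04 in batch B and 2.87 in batch C. COX5A, a supernumerary subunit of complex IV, followed the same division, with 22.3 CPM in TPA 1 and 76.0 in TPA 2, against 12.0, 22.9 and 18.5 in control libraries. Its log2 difference was 1.47 ± 0.43 (adjusted p = 0.215), and -0.04 within batch B. NDUFB10, a complex I subunit of the membrane arm, had 46.3 CPM in TPA 1 and 133 in TPA 2, against 36.0, 45.0 and 36.7 in control libraries. These groups did not overlap, but TPA 1 was close to control 2, and the log2 difference was 1.19 ± 0.35 (adjusted p = 0.209). Groups apart were seen for 4 members higher and 3 lower in TPA, against 9.6% and 10.1% of all genes.

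Other members of high TPA 2 and ordinary TPA 1 were UQCR11, a small complex III subunit, NDUFB7, and NDUFS6, which binds zinc in complex I. UQCR11 had 85.4 CPM in TPA 1 and 323 in TPA 2, against 29.5, 103 and 65.3 in control libraries. The reverse was seen in ATP5I, the e subunit of the synthase, with 67.4 CPM in TPA 1 and 7.93 in TPA 2, against 21.4, 64.7 and 29.9 in control libraries. TPA 2 was the lowest library for ATP5I, and TPA 1 stood above every library but TPA+H89 1. UQCR10, another small complex III subunit, had 43.3 CPM in TPA 1 and 6.92 in TPA 2, against 64.2, 60.9 and 29.6 in control libraries. In all, 12 members were more than 1 log2 unit above and 25 more than 1 below the other libraries of batch C in TPA 2, while TPA 1 had 0 either way against batch B. Without TPA 1, leaving TPA 2 alone with a spread taken from the other groups, 12 members were called, against 5.92% of all genes. Higher were ATP5D, COX5A, NDUFB10, NDUFS6, NDUFS7, NDUFS8, NDUFV3, NDUFB7 and UQCR11, and lower were UQCR10, COX7B and ATP5O. Without TPA 2 there were 0.

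**Figure D3:**
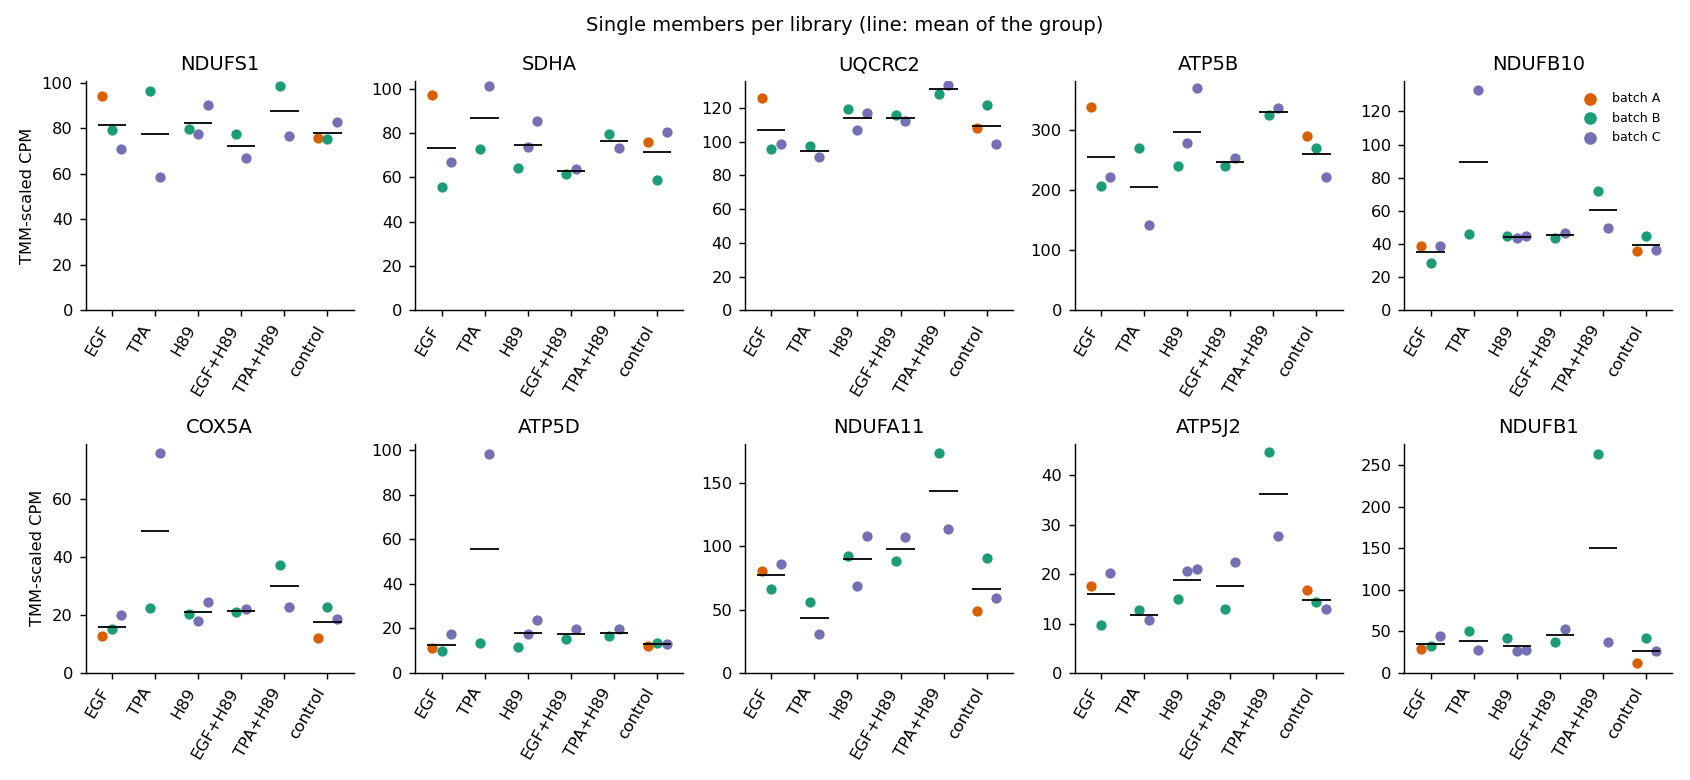
Levels of 10 members (TMM-scaled CPM, linear axes from 0) in each library by treatment; points are libraries coloured by batch, lines are group means. NDUFS1, SDHA and UQCRC2 overlap in most groups, NDUFB10, COX5A and ATP5D are high in TPA 2 (133, 76.0 and 98.5 CPM), and NDUFB1 is high in TPA+H89 1 (263 CPM).

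The largest median difference was that of TPA+H89 against TPA, which asks what H89 does to cells given TPA. Among the 84 members edgeR called 0, as it did of all tested genes (0%), and DESeq2 called NDUFA11 only, against 0.0494% of all genes. At an unadjusted p under 0.05 there were 32 members higher and 2 lower, against 2.56% and 4.44% of all genes. The median log2 difference was 0.82, against -0.02 for all tested genes, and 66 of 84 were above 0, against 44.8%. Both TPA+H89 libraries were above both TPA libraries for 42 members, against 10.6% of all genes, and below for 1, against 11.1%. The median was 0.90 in batch B (TPA+H89 1 minus TPA 1) and 0.63 in batch C (TPA+H89 2 minus TPA 2), so each pair of libraries had the same sign. It was 0.47 without TPA+H89 1, 0.69 without TPA 2 and 0.38 without both, a setting chosen after the values were seen. That last setting leaves TPA+H89 2 of batch C against TPA 1 of batch B, so its value mixes treatment and batch.

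By complex the median was 0.70 for complex I, 0.33 for complex II, 1.29 for complex III, 1.14 for complex IV and 0.98 for complex V. Summed over the 82 subunit genes, levels were 9753 and 5833 CPM in TPA+H89 1 and 2, 4712 and 4529 in TPA 1 and 2, and 4073, 5193 and 3985 in control libraries. TPA+H89 1 alone stood far above, and TPA+H89 2 was above each TPA and control library by a smaller step. The sums were 5469, 3835 and 4825 CPM in EGF, 5043, 4409 and 5466 in H89 and 4704 and 5678 in EGF+H89 libraries, which overlapped with control. For complex II the TPA+H89 libraries held 244 and 265 CPM, the TPA libraries 209 and 217 and the control libraries 139, 214 and 216.

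NDUFA11, a membrane subunit of complex I, had the lowest p. It stood at 174 CPM in TPA+H89 1 and 113 in TPA+H89 2, against 56.4 in TPA 1 and 30.5 in TPA 2, with 49.3, 90.5 and 58.8 in control libraries. The TPA+H89 libraries were above all of these, and TPA 2 was below each control library. The log2 difference of TPA+H89 from TPA was 1.73 ± 0.39 (adjusted p = 0.713), 1.62 in batch B and 1.88 in batch C. ATP5J2, the f subunit of the synthase, had 44.6 and 27.7 CPM in TPA+H89 1 and 2 and 12.8 and 10.7 in TPA 1 and 2, a log2 difference of 1.62 ± 0.40 (adjusted p = 0.713). UQCRQ, a small subunit of complex III, had 169 and 68.2 CPM in TPA+H89 1 and 2 and 53.4 and 37.8 in TPA 1 and 2, a log2 difference of 1.37 ± 0.42 (adjusted p = 0.713). In both genes the groups were apart, with TPA+H89 2 between TPA+H89 1 and the TPA libraries. The complex I subunits of highest CPM were NDUFA13 and NDUFS5. NDUFA13 had 368 and 119 CPM in TPA+H89 1 and 2 and 90.6 and 112 in TPA 1 and 2, groups that were apart with TPA+H89 2 close to TPA 2 (1.26 ± 0.58, adjusted p = 0.713). NDUFS5 had 215 and 99.99 CPM in TPA+H89 1 and 2 and 102 and 48.5 in TPA 1 and 2, which overlapped (1.07 ± 0.50, adjusted p = 0.716).

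ATP5G3, a gene of the c subunit, had 134 and 87.8 CPM in TPA+H89 1 and 2 and 68.5 and 51.5 in TPA 1 and 2. The groups did not overlap, and the log2 difference was 0.88 ± 0.28 (adjusted p = 0.713), with 1.73 ± 0.64 for ATP5G1 and 0.87 ± 0.41 for ATP5G2. The complex I subunit NDUFA2 was at 1.86 ± 0.59 and NDUFA3 at 2.07 ± 0.67. On the lower side ATP5D had 16.4 and 19.7 CPM in TPA+H89 1 and 2 and 13.3 and 98.5 in TPA 1 and 2, at -1.63 ± 0.65 (adjusted p = 0.713). The groups overlapped, with TPA 1 below and TPA 2 far above both TPA+H89 libraries. NDUFA6-AS1, which RefSeq now names NDUFA6-DT, had 1.09 and 1.19 CPM in TPA+H89 1 and 2 and 1.52 and 5.00 in TPA 1 and 2 (-1.50 ± 0.63, adjusted p = 0.713). Without TPA 1, where TPA 2 stands alone, 11 members were called, against 3.59% of all genes.

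TPA+H89 was also set against H89, the cells without the mitogen. EdgeR called 0 members, against 0.0969% of all genes, and DESeq2 called 0. At an unadjusted p under 0.05, 19 members were higher and 0 lower, against 2.92% and 0.969% of all genes. The median was 0.53, against 0.00 for all tested genes, and it was 0.76 in batch B and 0.22 in batch C, and 0.21 without TPA+H89 1. Both TPA+H89 libraries lay above each H89 library for 30 of 84 members, against 9.92% of all genes. NDUFB1, a small membrane subunit of complex I, had 263 and 37.8 CPM in TPA+H89 1 and 2 and 42.3, 26.1 and 27.1 in H89 libraries. TPA+H89 2 was below H89 1, so the groups overlapped, and the log2 difference of 2.24 ± 0.64 (adjusted p = 0.671) was 2.62 in batch B and 0.50 in batch C. COX7A2 had 201 and 95.5 CPM in TPA+H89 1 and 2 and 72.0, 55.1 and 76.0 in H89 libraries. These groups were apart, at a log2 difference of 1.13 ± 0.35 (adjusted p = 0.849). UQCRB, which takes part in ubiquinone binding in complex III, had 733 and 188 CPM in TPA+H89 1 and 2 and 194, 149 and 138 in H89 libraries, which overlapped (1.52 ± 0.48, adjusted p = 0.884). NDUFV1, the core subunit that binds NADH in complex I, was at -0.12 ± 0.32.

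The difference between the effects of TPA with and without H89, tested as an interaction, called 0 members by edgeR, against 0% of all genes, with 9 higher and 1 lower at an unadjusted p under 0.05, against 2.31% and 2.47%; no other tool was run for it. Its median over the members was 0.65, against 0.01 for all tested genes. For EGF the same interaction called 0, with 0 at an unadjusted p under 0.05 and a median of 0.00, against -0.04. TPA against EGF called 0 members by edgeR, against 0% of all genes, and 3 by DESeq2 (ATP5D, COX5A and NDUFB10), against 1.76%, with 6 higher and 3 lower at an unadjusted p under 0.05, against 7.41% and 5.94%. Its median was -0.16 in the fit of all EGF and TPA libraries, 0.29 within batch B and -0.41 within batch C. Without TPA 1 it called 10, against 5.81% of all genes. Over all 6 groups edgeR called 0 members, against 0.183% of all genes, with 13 at an unadjusted p under 0.05, against 6.52%, and DESeq2 called 4, against 2.36% of all genes, which were UQCRH, NDUFB1, ATP5D and NDUFA11. The comparisons share libraries, EGF, TPA and H89 each being set against the same control, so they are not independent of each other.

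The members' deviations in single libraries were also set against gene length and base composition. TPA+H89 1, with 7527026 counts of which 13.4% were RMRP, a structural RNA, was set against the median of the other batch B libraries. There, 41 members with a coding sequence under 400 bases had a median log2 difference of 1.13, and 40 longer members one of 0.43. Over 81 members the rank correlation with coding length was -0.50, against -0.15 over 15566 coding genes. In TPA+H89 2 the short and long members were at 0.25 and 0.32 (rank correlation 0.09). The correlation was not particular to TPA+H89 1: over the members it was -0.71 in EGF 3, against 0.08 over the coding genes, and -0.67 in EGF+H89 2, against -0.32. TPA 2, with 130075914 counts, was set against the other batch C libraries in the same way. Its 10 members of at least 60% GC in the transcript were at 1.02 and the other 71 at -0.52, with a rank correlation with GC of 0.28, against 0.44 over the coding genes. In TPA 1 these were -0.19 and -0.07 (rank correlation 0.01). These correlations are across genes of a single library, which share its preparation and depth. The part of length, base composition and depth in the treatment differences was not tested.

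**Figure D4:**
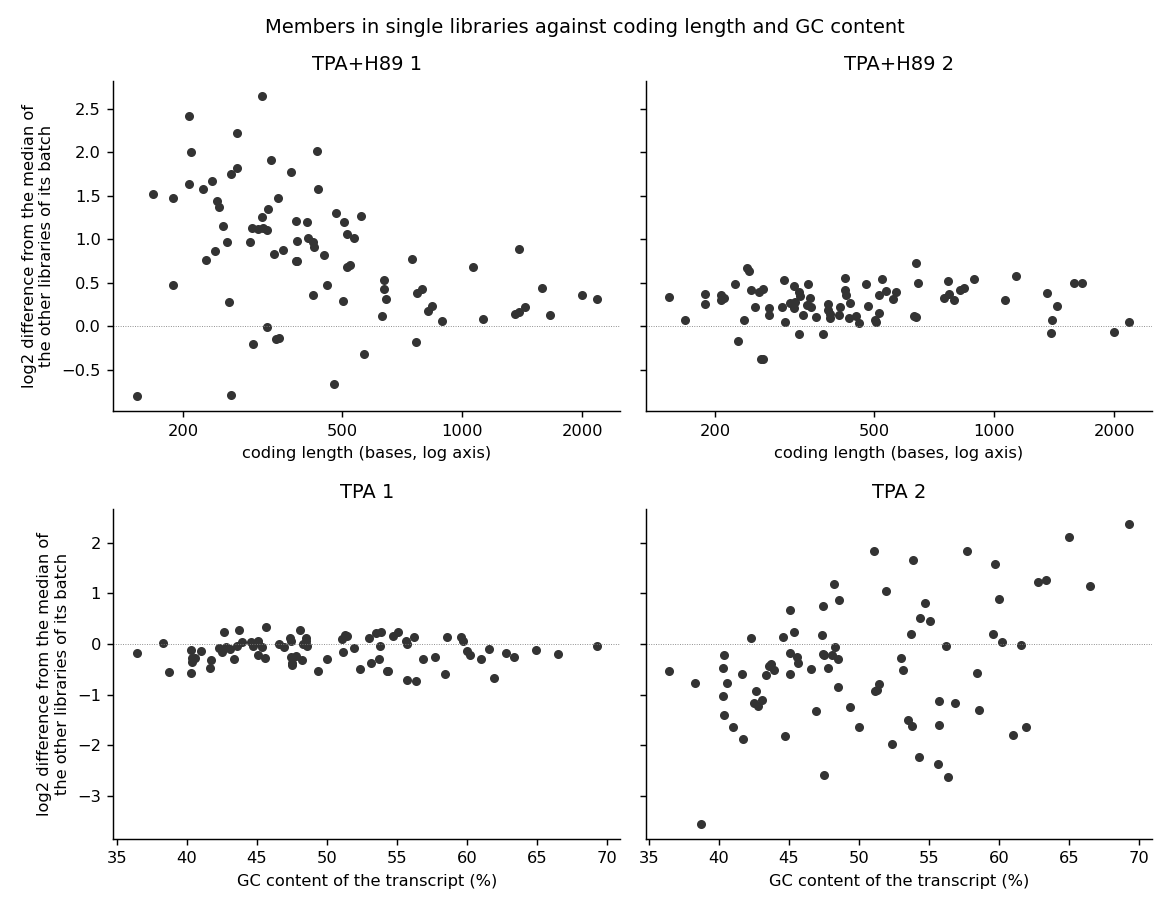
Each point is a member, placed by its log2 difference in a single library from the median of the other libraries of the same batch; the upper panels run over coding length in bases on a log axis, for TPA+H89 1 and 2, and the lower panels over GC content of the transcript in %, for TPA 1 and 2. Short members lie above long ones in TPA+H89 1 (medians 1.13 and 0.43) and not in TPA+H89 2, and the spread of TPA 2 (SD 1.17) is wider than that of TPA 1 (SD 0.25).

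The cytosolic ribosomal proteins, another set of short, abundant messages, are given beside the members. Set against the other libraries of its batch, the members' median and that of 82 ribosomal protein genes were 0.83 and 0.88 in TPA+H89 1, 0.26 and 0.37 in TPA+H89 2, -0.12 and -0.10 in TPA 1 and -0.46 and -0.91 in TPA 2. In EGF 2 they were -0.42 and -0.41, in EGF+H89 2 they were 0.30 and 0.33, and in control 3 they were -0.38 and -0.56. Set against the mean of the control libraries instead, they were 1.09 and 0.96 in TPA+H89 1, 0.41 and 0.95 in TPA+H89 2, 0.16 and 0.03 in TPA 1, -0.28 and -0.15 in TPA 2, 0.23 and -0.08 in EGF 1, 0.18 and 0.65 in EGF 3 and 0.30 and 0.71 in H89 3. In TPA+H89 against TPA the ribosomal proteins had a median log2 difference of 1.09, with 0 called. At an unadjusted p under 0.05, 28 of 82 were higher, against 2.56% of all genes. Groups were apart in 40, where 10.6% of all genes were higher and 11.1% lower without overlap. The members' median in TPA+H89 against TPA was 0.82, and the difference between the lists was not tested. Mitochondrial ribosomal proteins had a median of 0.33 over 78 genes, with 0 called. At an unadjusted p under 0.05, 13 were higher and 3 lower, against 2.56% and 4.44% of all genes.

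UQCRH and ATP5E have near-identical copies, and the counts of each pair followed the batch. UQCRH is the hinge protein of complex III, and UQCRHL, also a member, is a copy of it in a single exon. In the GENCODE 29 transcripts (GRCh38) their coding sequences differed at 4 of 273 bases, an identity of 98.53%, with a longest shared run of 157 bases. ATP5E, now ATP5F1E, is the epsilon subunit of the synthase, and its pseudogene ATP5EP2, now ATP5F1EP2, differed at 6 of 153 bases, an identity of 96.08%. The sequences compared are shown in pairs, and capitals mark the differing bases. Untranslated ends of UQCRH and ATP5E were not compared, and how reads were assigned within a pair was not tested. The coding sequences lie at chr1:15807377-15807649 (minus strand, UQCRHL), chr1:46303767-46316581 (plus strand, UQCRH, 4 exons) and chr20:59030309-59032251 (minus strand, ATP5E, 2 coding exons of 3). The ATP5EP2 transcript lies at chr13:27945260-27945415 (plus strand).
UQCRHL: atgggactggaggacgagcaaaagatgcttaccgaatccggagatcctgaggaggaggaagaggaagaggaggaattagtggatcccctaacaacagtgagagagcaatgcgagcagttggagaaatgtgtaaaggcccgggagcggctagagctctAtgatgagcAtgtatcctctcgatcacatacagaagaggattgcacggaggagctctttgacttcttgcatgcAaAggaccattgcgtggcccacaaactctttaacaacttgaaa
UQCRH: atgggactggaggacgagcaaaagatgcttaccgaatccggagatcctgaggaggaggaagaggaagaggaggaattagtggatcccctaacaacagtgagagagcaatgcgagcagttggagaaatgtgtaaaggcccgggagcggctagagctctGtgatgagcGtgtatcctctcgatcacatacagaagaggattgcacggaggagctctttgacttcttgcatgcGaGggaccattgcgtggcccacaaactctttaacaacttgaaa
ATP5EP2: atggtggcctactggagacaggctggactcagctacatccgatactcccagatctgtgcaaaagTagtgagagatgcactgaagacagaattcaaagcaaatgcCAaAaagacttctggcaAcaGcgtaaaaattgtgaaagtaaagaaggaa
ATP5E: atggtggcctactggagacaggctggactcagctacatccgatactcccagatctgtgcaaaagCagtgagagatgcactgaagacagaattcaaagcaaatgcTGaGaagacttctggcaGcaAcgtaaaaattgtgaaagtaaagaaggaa

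UQCRHL took 23.3% to 32.2% of the counts of the pair in the 6 libraries of batch B, 0.773% to 3.22% in the 7 of batch C, and 15.01% in EGF 1 and 13.4% in control 1. In batch B the share was 23.3% (95% Wilson interval 21.7 to 24.99) in TPA+H89 1, 26.9% (25.5 to 28.4) in TPA 1, 29.6% (27.9 to 31.3) in H89 1 and 32.2% (30.2 to 34.4) in control 2, and in batch C it was 2.57% in TPA+H89 2 and 3.22% in control 3. Libraries of different treatment in a batch were closer than libraries of 1 treatment in different batches. These intervals cover counting error only. The sum of both genes was 474 CPM in TPA+H89 1 and 114 in TPA+H89 2, 115 in TPA 1 and 109 in TPA 2, and 40.1, 114 and 88.2 in control libraries. TPA+H89 1 stood alone above the rest on that sum too.

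ATP5E had 0 to 26 counts in the batch B libraries, 90 to 1189 in batch C, and 682 in EGF 1 and 515 in control 1. Its copy ATP5EP2 took 62.9% to 100% of the small sum in batch B and 0% to 2.17% in batch C. Within batch C, ATP5E stood at 0.744 CPM in TPA 2, against 11.1 in control 3 and 9.02 to 20.7 in the other 5. TPA 2 was thus the lowest of its batch, while in batch B both TPA 1 (3 counts) and control 2 (10 counts) held almost none. The log2 difference of TPA from control was -4.09 ± 2.20 (adjusted p = 0.422). It was called by edgeR with a batch term, at -3.76 ± 0.81 (adjusted p = 0.0303). With the replicate block, taken from the sample names, it was called at -6.15 ± 1.24 (adjusted p = 0.0489). That block sets TPA 1 of batch B with control 3 of batch C, so its value mixes treatment and batch.

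**Figure D5:**
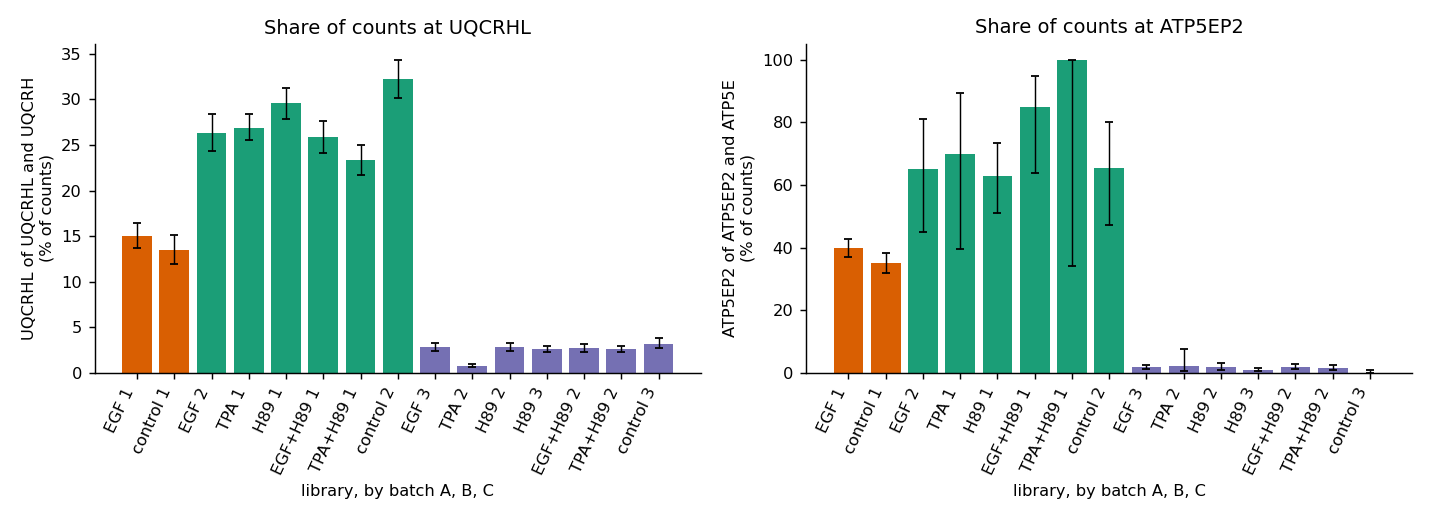
Bars give, for each library, the share in % of the counts of a gene pair that fell on the copy, UQCRHL (with UQCRH) on the left and ATP5EP2 (with ATP5E) on the right, with 95% Wilson intervals; libraries are ordered by batch and coloured as batch A (orange), B (green) and C (violet). The UQCRHL share is 23.3% to 32.2% in batch B and at most 3.22% in batch C, whatever the treatment.

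ATP5L2, a relative of the g subunit gene ATP5L, had 0 counts in both TPA libraries, 18 over the control and 20 over the EGF libraries. On these pooled counts it was at least 10.1-fold lower in TPA than in control, at a limit of 3 counts over the group. Of the 18 control counts, 16 were in control 1 of batch A, which has no TPA library, 2 in control 3 and 0 in control 2. The groups thus overlapped, and within batches B and C the control counts were under that limit, so no bound can be given there. Its mean level was 0.314 CPM per kb, against 249 for ATP5L.

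The subunits and carriers outside the symbol rule included COX4I1, the largest nuclear subunit of complex IV, and CYCS, cytochrome c. Of 8, 7 passed the filter, and 0 were called in any comparison by edgeR. In TPA against control NDUFAB1, the acyl carrier subunit of complex I, was at 1.21 ± 0.39 (adjusted p = 0.257), with 30.1 CPM in TPA 1 and 88.7 in TPA 2, against 19.2, 36.4 and 21.8 in control libraries. CYCS had 121 CPM in TPA 1 and 45.6 in TPA 2, against 7.28, 70.4 and 56.6 in control libraries, which overlapped. Of 46 assembly factors of the complexes 0 were called in any comparison. In TPA against control 7 were higher and 2 lower at an unadjusted p under 0.05, against 7.77% and 5.44% of all genes. Their median log2 difference from control was -0.01. TMEM70, needed for the synthase, had 12.0 CPM in TPA 1 and 46.0 in TPA 2, against 8.73, 13.7 and 11.8 in control libraries (1.35 ± 0.41, adjusted p = 0.223). COX14, an assembly factor of complex IV, was at 1.40 ± 0.41 in TPA+H89 against TPA (adjusted p = 0.713).

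Regulators, enzymes of the tricarboxylic acid cycle and import genes gave no calls either. Of 20 regulators of mitochondrial transcription 0 were called in any comparison, and in TPA against control their median was 0.07. At an unadjusted p under 0.05, 3 were higher and 0 lower, against 7.77% and 5.44% of all genes. The 18 genes of the cycle had medians of 0.08 in TPA against control and 0.24 in TPA+H89 against TPA, with 0 called. At an unadjusted p under 0.05, 1 was lower in the first, against 5.44% of all genes. In the second, 1 was higher, against 2.56%. The 23 import and dynamics genes had a median of 0.36 in TPA against control, with 0 called. Of these, 3 were higher and 0 lower at an unadjusted p under 0.05, against 7.77% and 5.44% of all genes. Of the 10 immediate-early genes, by contrast, edgeR called 9 higher in TPA and 3 in EGF against control. The shares of all genes called higher were 0.388% and 0.0269%. DUSP5 was at 3.72 ± 0.33 in TPA by edgeR (adjusted p = 0.000821).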

How the data were processed

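RNA was sequenced from 16 libraries of CCD-1070Sk fibroblasts after depletion of ribosomal RNA, with strand-specific kits, per the labels' protocols. The values used are raw read counts per gene as deposited by the authors, with HOMER as the tool and hg19 (GRCh37) as the build in the submitters' processing notes. Aligner, annotation and each library's platform are not stated there. A further control library was an exact copy of control 3 and was left out. The counts hold 0 columns that belong to no sample of the series.

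Genes were kept by edgeR's filterByExpr (smallest count 10), leaving 18575, and scaled with TMM factors. EdgeR 4.0.16 in R 4.3.3 was fitted to 15 libraries with 1 term per group, and quasi-likelihood p-values were adjusted by the Benjamini-Hochberg method over all tested genes, with calls at an adjusted p under 0.05. The common biological coefficient of variation was 0.534. Log2 levels used log2(CPM + 0.5), which understates changes of low genes. DESeq2 1.42.0, other scalings and filters, a batch term, name sets as a replicate block and leaving out libraries made up 25 alternative settings. Only the main edgeR fit was run on simulated counts with planted changes in TPA. The simulation had a lower spread than these data and no batches or deviant libraries, so it does not test the fits under these conditions. Wilson intervals and limits cover counting error only. Batches were read from the counts and are not in the labels.

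The members and lists were chosen with earlier results of these data known. Named members were the 3 of lowest p in each direction of each comparison, the 6 of lowest p over all groups, the 2 of highest CPM in each complex, any member called, and a fixed short list; of each other list, up to 3 genes of lowest p per comparison. A member that this rule names is not reported here. Coding length and GC come from GENCODE 29 (GRCh38) transcripts matched by symbol, found for 81 of the 84 members tested. The NRF1 and YY1 motifs were shortened by a letter after longer forms had been searched.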

Additional observations from a re-analysis of the deposited data

Results flagged for a closer look

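Counts of ATP5EP2, a pseudogene of ATP5E outside the members, stood above the control of the same batch in EGF 1. EGF 1 held 451 counts of ATP5EP2 and 682 of ATP5E, and control 1 held 277 counts of ATP5EP2 and 515 of ATP5E. The copy took 39.8% of the pair in EGF 1 and 35.0% in control 1. No group has 4 libraries, so no library was tested as an outlier.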

How the results depend on the processing

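No member was called as reported, and the count was above 0 in 11 of 224 cases; medians moved by less than their spread in 196 of 200. DESeq2 called 2 members in TPA against control (2.94% of all genes), 1 in TPA+H89 against TPA (0.0494%), 3 in TPA against EGF (1.76%) and 4 over all groups (2.36%). A batch term called 1 (ATP5E) in TPA against control (1.25%) and 1 (ATP5E) in TPA against EGF (0.334%). Leaving out each library gave 0 to 12 calls in TPA against control, 0 to 11 in TPA+H89 against TPA, 0 to 10 in TPA against EGF and 0 to 3 over all groups, the highest each time without TPA 1. Without TPA 1 the median was -0.43 in TPA against control and -0.43 in TPA against EGF, and without control 2 it was 0.44 in H89 against control. Over single libraries left out, the median ran from 0.02 to 0.28 in EGF, -0.43 to 0.18 in TPA and 0.088 to 0.44 in H89 against control, 0.05 to 0.33 in EGF+H89 and 0.47 to 1.08 in TPA+H89 against the mitogen alone, -0.03 to 0.25 in EGF+H89 and 0.21 to 0.82 in TPA+H89 against H89, and -0.43 to -0.0057 in TPA against EGF. Without TPA 2 and TPA+H89 1 together the median of TPA+H89 against TPA was 0.38. This sets TPA+H89 2 of batch C against TPA 1 of batch B, so it mixes treatment and batch. The labels give no replicate numbers, and the replicate block of name sets called 1 member (ATP5E) in TPA against control (0.447%), with a median of 0.07. That block sets TPA 1 of batch B with control 3 of batch C, so it does not keep the batches apart. Of 1188 values of named members 16 became calls, 20 moved and 22 changed sign with no call in either fit. The causes were not tested. With 2 libraries of TPA, EGF+H89 and TPA+H89, a lone library left in a group is assumed to vary like the others.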

Other observations

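Among 22 genes of glycolysis and its regulation, edgeR called 2 higher in TPA against control, where 0.388% of all tested genes were called higher. SLC2A3, the glucose transporter GLUT3, had 187 CPM in TPA 1 and 171 in TPA 2, against 29.5, 44.8 and 56.4 in control libraries. Both TPA libraries lay far above each control library, and the log2 difference was 2.04 ± 0.36 (adjusted p = 0.0293). HK2, the hexokinase of the first step, had 34.0 CPM in TPA 1 and 48.8 in TPA 2, against 17.1, 14.04 and 15.96 in control libraries, a log2 difference of 1.40 ± 0.26 (adjusted p = 0.0417). In these genes, unlike ATP5D or COX5A, TPA 1 was also above each control library; the difference between the lists was not tested. PFKFB3, which makes an activator of phosphofructokinase, was at 1.07 ± 0.35 and did not pass (adjusted p = 0.263).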
